A study of Mus musculus with 12 samples.

Results

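Autotaxin and the receptors of its product, lysophosphatidic acid (LPA), were followed in 12 RNA sequencing libraries made from MC3T3-E1 subclone 14, an established line of mouse calvarial pre-osteoblasts that can differentiate and mineralize in culture. The 6 genes described are Enpp2, which encodes autotaxin, the LPA receptor genes Lpar1, Lpar2, Lpar3 and Lpar6, and Plpp3, which encodes a phosphatase that removes LPA. They were taken by symbol from the 39032 genes of the deposited table, and each symbol occurs there once. They were chosen by measured values: in the same table, the Enpp2 FPKM with BMP2 against Control was already known to be among the most reduced. The BMP2 and BMP2+RSPO2 arms against Control are therefore given for the 6 genes as a description without a test.

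All libraries came from wild-type cells of this 1 line, kept for 5 days in osteogenic medium with ascorbate phosphate and β-glycerophosphate. The 4 arms of 3 independent biological replicates received vehicle (Control), recombinant mouse RSPO2 at 200 ng/ml, recombinant BMP2 at 100 ng/ml, or both proteins at these doses (BMP2+RSPO2). RSPO2 is a secreted enhancer of Wnt signalling, and BMP2 is a bone morphogenetic protein that drives osteoblast differentiation. The study compared the proteins singly and together. Values are FPKM (fragment counts corrected for the length of the transcript and the depth of the library), so levels can be compared between genes. Means are given ± SD with n = 3.

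Autotaxin is a secreted lysophospholipase D that makes LPA from lysophosphatidylcholine outside the cell. LPA acts on G protein-coupled receptors of 2 families, with LPA1, LPA2 and LPA3 related to the sphingosine 1-phosphate receptors and LPA4, LPA5 and LPA6 related to the purinergic receptors, and it is ended mainly by lipid phosphate phosphatases of the cell surface. In bone, LPA is known to act on proliferation, migration and differentiation of osteoblast-lineage cells, largely through LPA1.

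The label of the cells was met by their transcripts. All 8 osteoblast markers, among them Runx2, Sp7, Alpl, Ibsp and Col1a1, were at 1 FPKM or more in at least 3 libraries, and their sum ran from 6724 to 30478 FPKM. Adipocytes are a rich source of autotaxin in the body, and the 8 adipocyte markers summed to at most 1.66 FPKM in any library, with Plin1, Cfd and Lep at 0 in all. Endothelial markers summed to 0.16 to 0.55 FPKM in Control and 2.04 to 5.97 FPKM with both proteins, and macrophage markers to at most 4.35 FPKM in any library, with Ptprc, Adgre1 and Itgam at 0. Chondrocyte markers were lowest with RSPO2 (4.37 to 4.76 FPKM) and highest with BMP2 (23.4 to 45.2 FPKM), with Acan and Col9a1 at 0, and the part of these markers in the results below was not tested.

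BMP2+RSPO2 replicate 1 stood apart in RNA composition: its FPKM summed to 635139, against 322074 to 380507 in the other 11 libraries, and the top 10 genes made up 57.8% of that, against 11.4% to 19.8% elsewhere. The first replicate of every arm also had more cell cycle mRNA, with a median over 10 such genes of 26.7 to 51.0 FPKM, against 7.47 to 19.5 in replicates 2 and 3. Many results below are also given without these libraries, though not every call that changed. The median log2 change of all tested genes was −0.26 in BMP2+RSPO2 against Control, −0.26 against RSPO2 and −0.19 against BMP2, while it was 0.01 between RSPO2 and Control and −0.06 between BMP2 and Control. Changes in the BMP2+RSPO2 arm are to be read against that shift.

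Enpp2 was the member that differed most between the arms. It was read at 51.3, 21.6 and 18.5 FPKM in the 3 Control libraries, at 117, 94.5 and 73.9 FPKM with RSPO2, at 3.71, 1.17 and 1.42 FPKM with BMP2, and at 4.92, 3.53 and 3.34 FPKM with both. Every RSPO2 library thus lay above every Control library, and every Control library above all 6 libraries with BMP2, an order that 1.75% of the 11548 tested genes share. The arm means were 30.5 ± 18.1 FPKM in Control, 95.2 ± 21.6 under RSPO2, 2.10 ± 1.40 under BMP2 and 3.93 ± 0.863 under the combination.

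**Figure D1:**
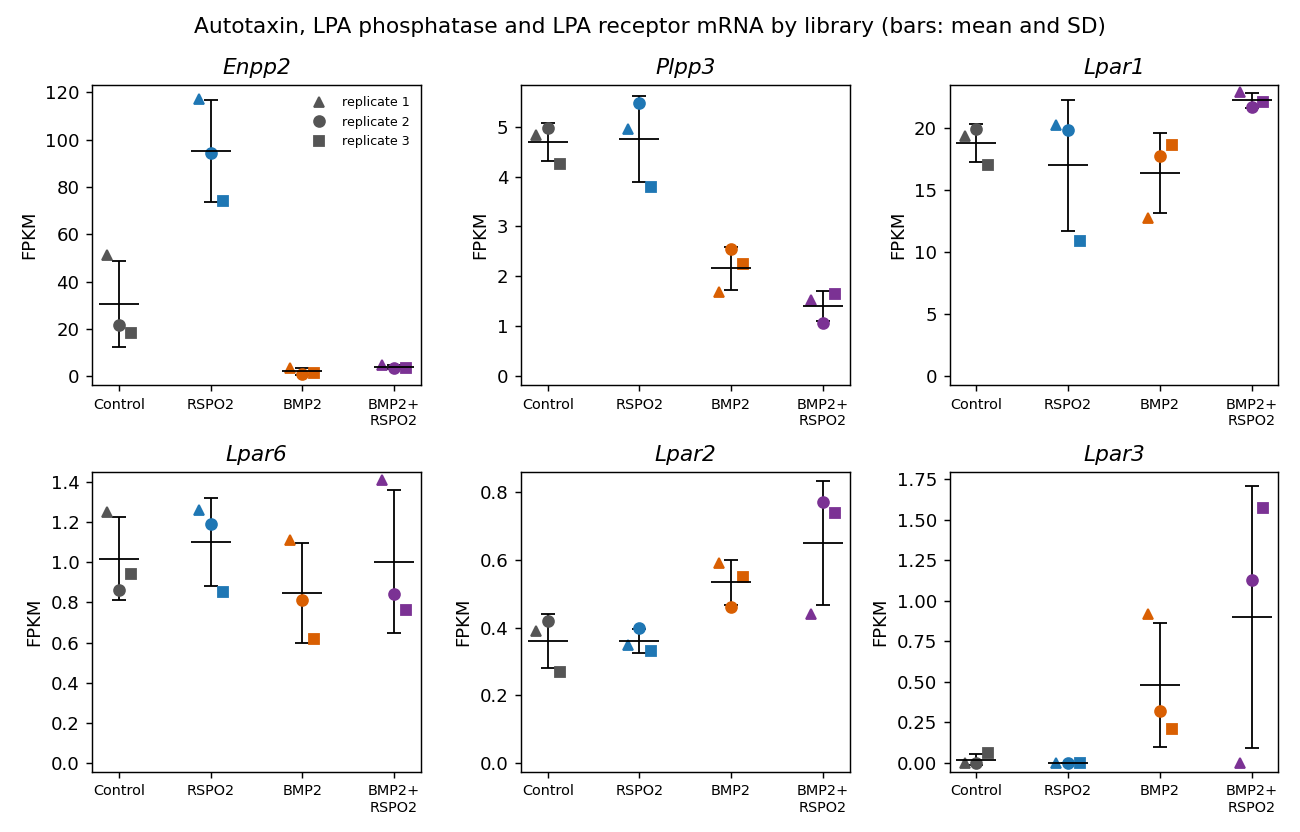
FPKM of the 6 genes in each of the 12 libraries, 1 panel per gene with its own linear axis; symbols mark the replicate number, and the horizontal line and whiskers are the mean and SD of the 3 libraries of an arm. Enpp2 lies between 73.9 and 117 FPKM with RSPO2 and under 5 FPKM in all 6 libraries with BMP2, Plpp3 is lower in the arms with BMP2, and Lpar1 is highest with both proteins.

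The mean of Enpp2 was 14.5-fold lower with BMP2 than in Control (log2 change −3.29, SE 0.38) and 7.76-fold lower with both proteins (−2.54, SE 0.38). These are the contrasts that drew attention to the gene, and they carry no test here. In BMP2 against Control, the libraries of 14.6% of all tested genes lay wholly lower, and in BMP2+RSPO2 against Control those of 37.3%. Measured in the other pair of arms, BMP2+RSPO2 against RSPO2, Enpp2 fell 24.2-fold in mean FPKM (log2 −4.28, SE 0.38, limma adjusted p = 5.55e-05), the eighth lowest log2 change of 11548. These 6 libraries are not among those of BMP2 against Control. The BMP2+RSPO2 libraries, however, also enter BMP2+RSPO2 against Control, which is treated here as used in the choice. All values were known when the gene was chosen, so this p-value is not independent of the choice. Called at an adjusted p under 0.05, 21.8% of all tested genes were lower in this comparison and 4.32% higher. The fall was called without each library in turn (adjusted p = 2.07e-05 to 0.00051), without BMP2+RSPO2 replicate 1 among them, and from replicates 2 and 3 alone (−4.25, adjusted p = 1.39e-05).

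RSPO2 against Control had the other sign. The Enpp2 mean was 3.12-fold higher with RSPO2 than in Control (log2 1.73, SE 0.38, 95% interval 0.88 to 2.58), the sixth highest log2 change of all tested genes. It did not pass the test over all genes (limma adjusted p = 0.263). In this comparison 0.0779% of the tested genes were called (9 genes, and 418 at an unadjusted p under 0.05), and the libraries of 5.81% lay wholly higher with RSPO2. Control replicate 1, at 51.3 FPKM, was the Control library nearest to the RSPO2 arm, and without it the log2 change was 2.17. From replicates 2 and 3 alone it was 2.01 and passed (adjusted p = 0.00384). A fit blocked on replicate number called the change (limma adjusted p = 0.0312), but the labels do not give these numbers as a pairing. Any pairing would put the RSPO2 library higher, since the arms did not overlap. The Control libraries also enter BMP2 against Control, by which Enpp2 was chosen. No p-value of this paragraph is therefore independent of the choice.

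In the presence of BMP2, Enpp2 was at 3.93 ± 0.863 FPKM with RSPO2 and at 2.10 ± 1.40 without it, a 1.87-fold higher mean. The libraries overlapped, since BMP2 replicate 1 at 3.71 FPKM exceeded 2 of the BMP2+RSPO2 libraries, and the change did not pass (log2 0.74, SE 0.38, 95% interval −0.11 to 1.60, limma adjusted p = 0.249). Called over all tested genes in this comparison were 4.38%. Replicates 2 and 3 alone gave 0.95 (adjusted p = 0.00603). By replicate number, again not a stated pairing, Enpp2 was higher with RSPO2 in all 3 pairs. The replicate block gave a limma adjusted p of 0.0422. The RSPO2 effect with BMP2 minus that without BMP2 was −0.99 (SE 0.54, 95% interval −2.19 to 0.22, adjusted p = 0.457), with 0.294% of all tested genes called for this interaction, so the 2 effects were not shown to differ. Replicates 2 and 3 alone gave −1.06 (adjusted p = 0.0242), and without BMP2 replicate 1 it was −0.64. Enpp2 was low in both arms with BMP2, where the pseudocount of 1 understates log2 changes most. The RSPO2 effect with BMP2 is thus understated more than that without it, which makes these interaction values more negative. The interaction contains the BMP2 against Control difference by which Enpp2 was chosen. BMP2+RSPO2 against BMP2 uses the same BMP2 libraries, so no p-value of this paragraph is independent of the choice.

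Within each arm, Enpp2 was highest in replicate 1, the replicate that also had the most cell cycle mRNA. This order in all 4 arms is shared by 14.8% of the tested genes. The part of proliferation in it was not tested.

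**Figure D2:**
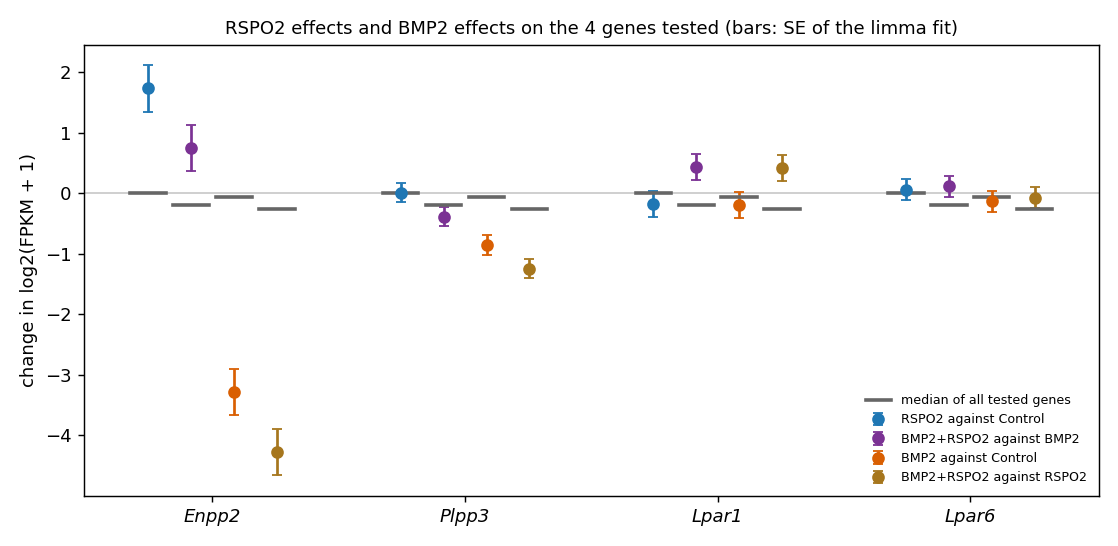
Change in log2(FPKM + 1) of the 4 genes that passed the filter on low values, for the effect of RSPO2 without and with BMP2 and the effect of BMP2 without and with RSPO2; points are limma estimates, bars their SE, and grey dashes the median of all tested genes in that comparison. Enpp2 lies at 1.73 and 0.74 for RSPO2 and at −3.29 and −4.28 for BMP2, Plpp3 is below the grey dashes for BMP2, and Lpar1 and Lpar6 stay within 0.5 of 0.

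Plpp3 encodes lipid phosphate phosphatase 3, a cell surface enzyme that removes the phosphate of LPA. It was at 4.84, 4.98 and 4.25 FPKM in Control and at 4.96, 5.48 and 3.80 under RSPO2. In the BMP2 arm it was at 1.69, 2.54 and 2.25 FPKM, and in the BMP2+RSPO2 arm at 1.53, 1.07 and 1.64. The 6 libraries with BMP2 were all lower than the 6 without it, as in 7.64% of the tested genes, whereas the Control and RSPO2 libraries overlapped. The mean was 2.17-fold lower with BMP2 than in Control (log2 −0.86, SE 0.16) and 3.32-fold lower with both (−1.24, SE 0.16), again without a test.

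In BMP2+RSPO2 against RSPO2, Plpp3 fell from 4.75 ± 0.860 to 1.41 ± 0.302 FPKM (log2 −1.25, SE 0.16, limma adjusted p = 4.80e-04), beside a median of −0.26 for all tested genes. With Enpp2, which was chosen for its fall with BMP2, 2 of the 4 tested members were called in this comparison, against 26.1% of all tested genes. Libraries lay wholly lower in this comparison in 36.1% of them. The call of Plpp3 held without each library in turn (adjusted p = 0.000563 to 0.00312). RSPO2 against Control gave 0.01 (95% interval −0.35 to 0.36, limma adjusted p = 1.00). Against BMP2, Plpp3 was 1.53-fold lower with both proteins, with all 3 libraries under all BMP2 libraries, as in 28.6% of the tested genes, and did not pass (log2 −0.39, SE 0.16, limma adjusted p = 0.159). The interaction for Plpp3 was −0.39 (95% interval −0.89 to 0.10, adjusted p = 0.472).

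Promoter sequences were at hand for 5 of the 6 genes in RefSeq (build GRCm38.p6). None was at hand for Enpp2, which like Plpp3 was lower in every library with BMP2. The 250 bases upstream of the start are shown for Plpp3 and for Lpar3, which exceeded 0.1 FPKM only in libraries with BMP2. Both are given 5′ to 3′ on the plus strand with CG dinucleotides in capitals. The windows are chr4:105157097-105157346 and chr3:146220711-146220960.
Plpp3: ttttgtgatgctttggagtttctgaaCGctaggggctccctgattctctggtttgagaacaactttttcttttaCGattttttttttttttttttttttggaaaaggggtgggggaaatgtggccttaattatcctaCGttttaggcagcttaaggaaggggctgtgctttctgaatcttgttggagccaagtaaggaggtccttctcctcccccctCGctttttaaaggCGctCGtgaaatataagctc
Lpar3: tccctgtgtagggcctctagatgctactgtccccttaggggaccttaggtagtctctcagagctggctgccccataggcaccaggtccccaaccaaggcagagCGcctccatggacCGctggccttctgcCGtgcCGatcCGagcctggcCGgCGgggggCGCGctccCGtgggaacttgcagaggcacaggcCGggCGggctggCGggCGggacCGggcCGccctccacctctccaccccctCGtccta
The Plpp3 window has 6 CG dinucleotides and 42.4% G+C, and the Lpar3 window 17 and 69.6%, beside medians of 6 and 52.4% over 32851 promoter windows of this length. The letters GGCGCC (a BMP response element core), CTTTGA (a TCF/LEF core) and TGTGGT (a RUNX core), searched on both strands, occur in neither window and in 9.59%, 13.8% and 14.0% of all windows. None of these motifs contains another, and a missing match says nothing of the factors.

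The remaining lipid phosphate phosphatases were taken from a list of 12 genes of LPA breakdown, of which 7 passed the filter with Plpp3 among them. Of the other 6, 1 fell and none rose in BMP2+RSPO2 against Control, where 23.0% of all tested genes were called (3.65% higher, 19.4% lower). In BMP2+RSPO2 against RSPO2, 1 fell, beside 21.8% of all tested genes. That gene was Plpp1, which encodes lipid phosphate phosphatase 1. Its libraries read 26.0, 20.4 and 17.6 FPKM in Control and 24.3, 19.2 and 17.7 under RSPO2. They read 13.2, 9.55 and 8.87 FPKM in the BMP2 arm and 10.9, 7.17 and 7.59 in the BMP2+RSPO2 arm. As for Plpp3, all libraries with BMP2 lay under all without it.

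Plpp1 fell by 1.23 on the log2 scale in BMP2+RSPO2 against Control (SE 0.21, limma adjusted p = 0.00285) and by 1.18 against RSPO2 (adjusted p = 0.00268). BMP2 alone gave −0.95 (SE 0.21, adjusted p = 0.052), a value that passed after quantile normalization (0.0371), after median-of-ratios scaling (0.0461), without BMP2+RSPO2 replicate 1 (0.0226) and from replicates 2 and 3 alone (0.00306). Plpp2 was at 24.8 ± 2.48 FPKM in Control and 20.8 ± 0.332 under the combination, and Plpp5 at 23.2 ± 1.07 and 24.9 ± 3.30. With all libraries, neither was called in any comparison. From replicates 2 and 3 alone, 1 of the 6 genes was called higher in BMP2+RSPO2 against BMP2, beside 620 of all 11548 tested genes. In those replicates Plpp5 read 27.3 and 26.2 FPKM with both proteins and 20.3 and 21.0 with BMP2.

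**Figure D3:**
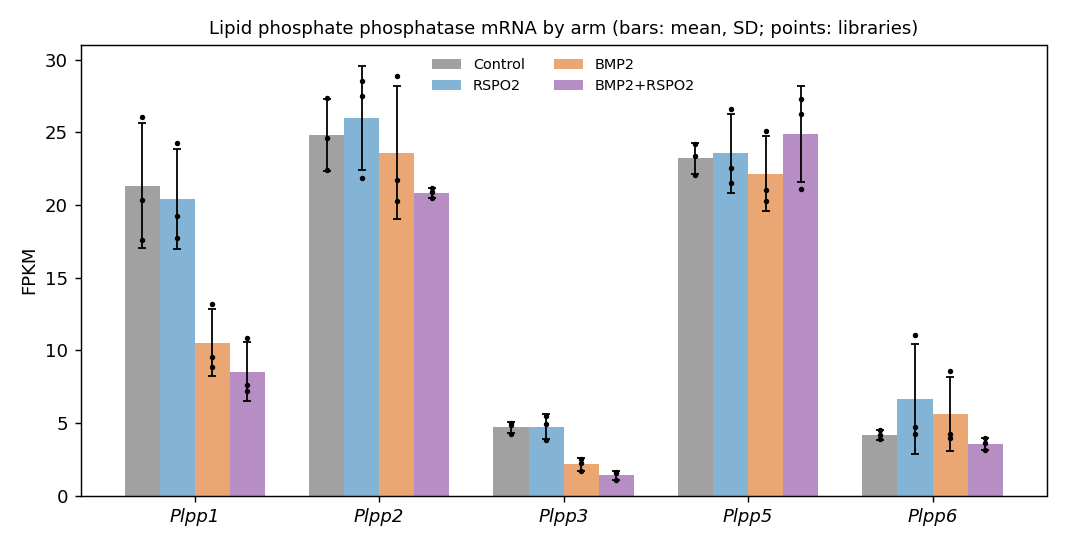
FPKM of 5 lipid phosphate phosphatase genes by arm; bars are means of 3 libraries from 0, whiskers the SD and points the libraries. Plpp1 and Plpp3 are lower in both arms with BMP2, while Plpp2 and Plpp5 lie between 20 and 29 FPKM in all libraries.

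Lpar1 had the highest level of the 5 LPA receptor genes measured in every arm. It was at 19.4, 20.0 and 17.1 FPKM in Control and at 20.2, 19.9 and 10.9 under RSPO2. It was at 12.8, 17.8 and 18.7 FPKM in the BMP2 arm and at 22.9, 21.8 and 22.1 in the BMP2+RSPO2 arm. The 3 libraries with both proteins exceeded the other 9, as in 2.25% of the tested genes, and RSPO2 replicate 3 and BMP2 replicate 1 were the low ones. In BMP2+RSPO2 against RSPO2, Lpar1 did not pass (log2 0.42, SE 0.21, 95% interval −0.06 to 0.89, limma adjusted p = 0.171). Scaling moved this value by over 1.5 times, to 0.70 after quantile normalization (adjusted p = 0.0535) and 0.68 after median-of-ratios scaling (0.0578), and without RSPO2 replicate 3 it was 0.14. In BMP2+RSPO2 against BMP2 it was 0.44 (95% interval −0.04 to 0.91, adjusted p = 0.23), and 0.27 without BMP2 replicate 1. RSPO2 against Control gave −0.18 (95% interval −0.66 to 0.29, adjusted p = 1.00) and 0.09 without RSPO2 replicate 3.

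The interaction was 0.62 for Lpar1 (SE 0.30, limma adjusted p = 0.417), and 0.34 without RSPO2 replicate 3. The descriptive changes against Control were −0.20 with BMP2 (SE 0.21) and 0.24 with both (SE 0.21), where the first was −0.04 without BMP2 replicate 1 and the second 0.50 under quantile normalization and 0.49 under median-of-ratios scaling. The arm means of the 5 comparisons between arms differed by at most 1.36-fold. The order of Enpp2 and Lpar1 changed with BMP2. Enpp2 exceeded Lpar1 in 6 of the 6 libraries without BMP2, by 1.08 to 6.77 times, and in 0 of the 6 with BMP2, where its level was 0.0658 to 0.291 times that of Lpar1.

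Lpar6, a receptor gene of the purinergic-like family, was at 1.02 ± 0.206 FPKM in Control, 1.1 ± 0.219 under RSPO2, 0.847 ± 0.247 under BMP2 and 1.00 ± 0.354 under the combination. Its libraries, from 0.62 to 1.41 FPKM, overlapped between all arms. It passed in none of the comparisons tested, with log2 changes of 0.06 (95% interval −0.33 to 0.44) for RSPO2 against Control, 0.11 (−0.27 to 0.49) for BMP2+RSPO2 against BMP2 and −0.08 (−0.46 to 0.31) against RSPO2, and limma adjusted p-values of 1.00, 0.692 and 0.767. The last value was 0.07 after median-of-ratios scaling, and the second −0.03 without BMP2+RSPO2 replicate 1, so neither kept its sign.

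Lpar2 and Lpar3 did not reach 1 FPKM in 3 libraries and were not tested. Lpar2 was at 0.39, 0.42 and 0.27 FPKM in Control and at 0.35, 0.40 and 0.33 under RSPO2. It was at 0.59, 0.46 and 0.55 FPKM in the BMP2 arm and at 0.44, 0.77 and 0.74 in the BMP2+RSPO2 arm. All libraries with BMP2 thus read above all without it, an order found in 2.25% of the tested genes, but at levels under 1 FPKM and by 0.44 against 0.42 FPKM at the nearest.

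Lpar3 was listed at 0 in all 3 RSPO2 libraries and at 0, 0 and 0.06 FPKM in Control. With BMP2 it was at 0.92, 0.32 and 0.21 FPKM, above all Control libraries, and with both at 0, 1.13 and 1.57 FPKM. The 0 belongs to BMP2+RSPO2 replicate 1, the library that stood apart in composition. No fold is given, since depth is unknown and a value of 0 cannot be bounded. Lpar5 was listed at 0 in all 12 libraries, and none of the deposited genes carried the symbol Lpar4. Libraries lay wholly higher in 6.23% of the tested genes for BMP2 against Control, in 6.68% for BMP2+RSPO2 against Control, in 4.97% against BMP2 and in 6.22% against RSPO2.

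The order of levels in Control was Enpp2 and Lpar1, whose libraries overlapped, then Plpp3 at 4.69 ± 0.387 FPKM, Lpar6, Lpar2 and Lpar3. With RSPO2 all neighbours in this order were apart. With BMP2 it was Lpar1 at 16.4 ± 3.20 FPKM, then Plpp3 at 2.16 ± 0.432 and Enpp2 at 2.10 ± 1.40, which overlapped, then Lpar6, apart from its neighbours, and Lpar2 and Lpar3, which overlapped. With both proteins Enpp2 stood between Lpar1 and Plpp3 without overlap with either, and Plpp3, Lpar6, Lpar3 and Lpar2 followed, each overlapping the next.

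Among the other genes of LPA synthesis, few were expressed. Of the 8 in the list 7 were in the table, and beside Enpp2 only Pla2g6, a calcium-independent phospholipase A2, passed the filter, at 2.66 ± 0.241 FPKM in Control and with no call in any comparison. Liph and Lipi, which make LPA from phosphatidic acid, were listed at 0 in all libraries. Of the other 6 ENPP genes, Enpp1 alone passed the filter, and only through libraries with BMP2. It makes pyrophosphate, an inhibitor of mineralization, and was at 0.09 ± 0.0781 FPKM in Control, 0.86 ± 0.766 under BMP2 and 2.68 ± 2.27 under the combination (log2 1.45, SE 0.54, limma adjusted p = 0.0731, not called). BMP2+RSPO2 replicate 1, at 0.07 FPKM, was far below replicates 2 and 3 of its arm, at 4.2 and 3.76. Without it the change was 2.19 (adjusted p = 0.00166), and from replicates 2 and 3 alone 2.13 (1.65e-04). Enpp1 was at most 0.14 FPKM without BMP2, so it could pass the filter only where it was high.

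LPA acyltransferases use LPA inside the cell to make phosphatidic acid and other phospholipids. Of 7 tested, 0 were called in RSPO2 against Control or BMP2 against Control (in which 1.52% of all tested genes were called). In BMP2+RSPO2 against Control, 1 rose and 2 fell, beside 3.65% and 19.4% of all tested genes. From replicates 2 and 3 alone, 1 rose and 3 fell there, beside 856 and 3138 of all tested genes. Agpat3 rose, at 1.46 ± 0.631 FPKM in Control and 3.28 ± 0.775 with both (log2 0.82, adjusted p = 0.0239). Its call ended without the filter (0.0549) and without Control replicate 1 or BMP2+RSPO2 replicate 2 or 3 (highest adjusted p = 0.078). Mboat1 fell with both proteins against BMP2 (3.74% of all tested genes were called lower there), from 14.3 ± 1.64 to 7.49 ± 0.363 FPKM (log2 −0.85, SE 0.11, adjusted p = 0.00353). Its fall against Control (−0.58, adjusted p = 0.00447) and that of Agpat4 (−0.61, adjusted p = 0.0346) ended under median-of-ratios scaling (adjusted p = 0.0741 and 0.239). Mboat1 was also lower with RSPO2 than in Control, at 7.92 ± 0.526 and 11.7 ± 0.739 FPKM without overlap, as in 3.52% of the tested genes, and this did not pass (−0.51, limma adjusted p = 0.23). From replicates 2 and 3 alone Mboat1 was called lower with RSPO2 (−0.51, 0.0243) and higher with BMP2 (0.40, 0.0179) than in Control, the 1 call of the list in each. Of all tested genes, 69 were called lower with RSPO2 and 433 higher with BMP2 there. The call of Agpat4 also ended without BMP2+RSPO2 replicate 1 (−0.40, 0.0624) and without 4 other single libraries (0.0501 to 0.103).

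The sphingosine 1-phosphate receptors are related to LPA1, LPA2 and LPA3. Of the 5, S1pr1 and S1pr2 passed the filter. S1pr2 fell in BMP2+RSPO2 against Control, from 14.6 ± 1.62 to 7.34 ± 0.296 FPKM (log2 −0.90, SE 0.10, limma adjusted p = 4.45e-04), and against RSPO2 (−1.08, adjusted p = 8.98e-05). Its fall against BMP2 (−0.45, adjusted p = 0.0423) was not called after median-of-ratios scaling (0.166) and in 10 of the 12 fits without 1 library (highest 0.126). S1pr1 was at 40.1 ± 2.56 FPKM in Control and 36.7 ± 12.4 with both and was not called (log2 −0.17, limma adjusted p = 0.54). BMP2+RSPO2 replicate 1 read 51.0 FPKM against 29.4 and 29.8 in replicates 2 and 3. Without it S1pr1 was called lower than in Control (−0.42, adjusted p = 0.0269), as from replicates 2 and 3 alone (−0.41, 0.0209), while with all libraries it was 0.09 under median-of-ratios scaling.

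Genes that SRF, its MRTF cofactors and YAP are known to switch on were taken as a list, together with the genes of SRF and the MRTF cofactors themselves. Of this list 17 were tested. Srf and the MRTF gene Mkl1 are among the falls given below for BMP2+RSPO2 against Control. RSPO2 against Control gave 0 calls and a median of 0.03. From replicates 2 and 3 alone it gave 1 rise, beside 126 rises among all tested genes. BMP2 against Control, in which 1.0% of all tested genes were called lower, gave 1 fall, Acta2, and a median of −0.25. It gave 2 falls without BMP2+RSPO2 replicate 1 and 6 from replicates 2 and 3 alone, beside 254 and 530 of all tested genes. BMP2+RSPO2 against Control gave 1 rise and 9 falls with a median of −0.44, beside 3.65% and 19.4% of all tested genes and their median of −0.26. Against RSPO2 there were 1 rise and 9 falls with a median of −0.63, beside 4.32%, 21.8% and −0.26. Without BMP2+RSPO2 replicate 1, where 2148 and 2375 of all tested genes fell, the counts were 1 and 10, and 1 and 9. From replicates 2 and 3 alone they were 2 and 13, and 1 and 13, where 3138 and 3379 of all 11548 tested genes fell. Under median-of-ratios scaling both were 1 and 5, with medians of −0.18 and −0.37, while 874 and 959 of all tested genes fell. With all libraries and no scaling, the rise was Ctgf, a matricellular YAP target. It went from 9.68 ± 3.20 FPKM in Control to 28.1 ± 10.6 with both (log2 1.42, SE 0.39, limma adjusted p = 0.026). That call ended without the filter (0.0576) and without Control replicate 1 (log2 1.14) or BMP2+RSPO2 replicate 2 or 3 (highest adjusted p = 0.0991).

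Contractile genes had the lowest changes in that list. Acta2, smooth muscle actin, was at 1190 ± 89.2 FPKM in Control, 1180 ± 163 under RSPO2, 599 ± 20.5 under BMP2 and 253 ± 18.6 under the combination. It fell in BMP2+RSPO2 against BMP2 (log2 −1.24, SE 0.13, limma adjusted p = 0.00143). There 5 of the 17 fell, beside 3.74% of all tested genes, and 2 after median-of-ratios scaling, beside 129 of all tested genes. From replicates 2 and 3 alone, 2 rose and 7 fell, beside 620 and 1892 of all tested genes. Myl9, a myosin light chain, fell there from 178 ± 9.60 to 64.9 ± 6.08 FPKM (−1.44, adjusted p = 6.09e-04). Tagln, which encodes transgelin, was at 253 ± 81.9 FPKM in Control and fell to 48.0 ± 4.93 with both (−2.32, adjusted p = 9.99e-04). RSPO2 against Control gave −0.02 for Acta2 and −0.02 for Tagln, beside 1.73 for Enpp2. For the interaction, 0.286% of all tested genes were called lower, and 2 of the 17 were. From replicates 2 and 3 alone, 1 of the 17 was called higher and 4 lower, beside 291 and 818 of all tested genes.

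**Figure D4:**
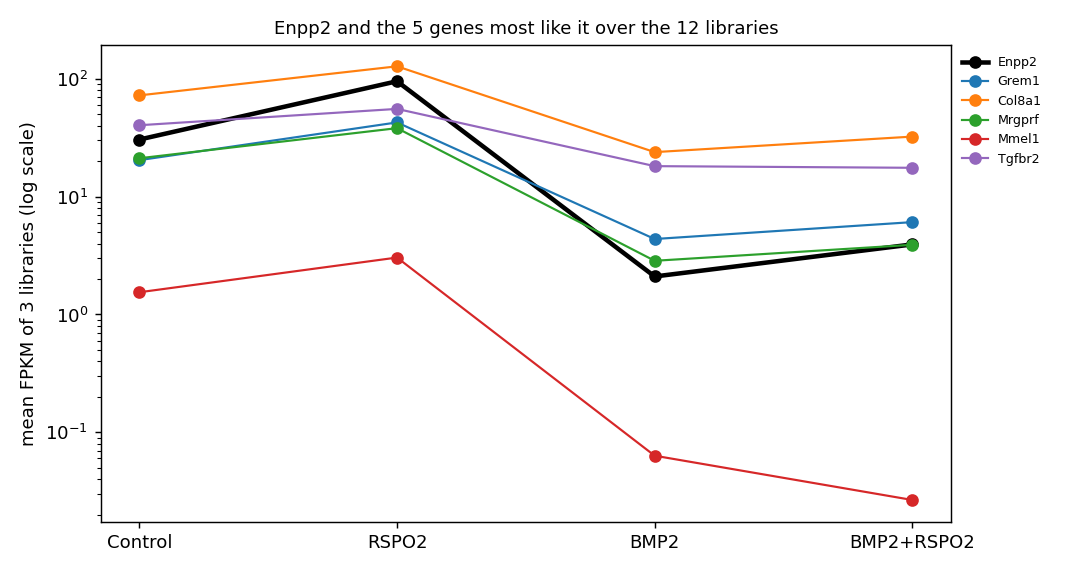
Mean FPKM (log scale) of Enpp2 and of the 5 genes with the highest Pearson correlation to it over the 12 libraries, by arm; each point is the mean of 3 libraries. All 6 lines are highest with RSPO2 and lower in both arms with BMP2 than in Control.

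The genes most like Enpp2 over the 12 libraries, by Pearson correlation of log2(FPKM + 1) among tested genes with a symbol, were Grem1 (r = 0.997), a secreted BMP antagonist, and Col8a1 (0.997), a short-chain collagen. Grem1 was at 20.4 ± 6.24 FPKM in Control, 42.6 ± 0.930 under RSPO2, 4.37 ± 1.5 under BMP2 and 6.07 ± 1.25 under the combination. Col8a1 was at 72.2 ± 18.0, 127 ± 10.9, 23.8 ± 4.56 and 32.3 ± 5.54 FPKM in the same order. Then followed the orphan receptor gene Mrgprf (0.984), the peptidase gene Mmel1 (0.978) and the TGF-β receptor gene Tgfbr2 (0.977). Of the next 3, those given are Pdzrn3 (0.974) and Trabd2b (0.97), which encodes a protease that inactivates Wnt proteins. All of these values share libraries and arms, and they are given without a p. Of the first 8, 6 were among the top 8 with a pseudocount of 0.1, and 4 from replicates 2 and 3 alone.

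The genes most like Plpp3 were Elac1 (r = 0.97), the laminin gene Lamb1 (0.966), Masp1 (0.964) and Ncoa7 (0.955). Those most like Lpar1 were Vkorc1l1 (0.88), Pcdh18 (0.865), Sema4c (0.838) and Arid1a (0.818). None of either group of 4 was among the top 4 from replicates 2 and 3 alone, so these names depend on which libraries enter.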

How the data were processed

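The data are 12 libraries of poly(A)-selected, stranded RNA sequencing of MC3T3-E1 cells, 3 in each of 4 arms, grouped by their titles. Per the submitters' processing notes, reads went through cutadapt 1.10, FastQC 0.10.1, HISAT2 2.0 and StringTie 1.3.4, with edgeR listed without a role. The notes name GRCm38 and mm10, but the identifiers belong to a C57BL/6NJ annotation, so no gene coordinates are given and the promoter windows are RefSeq's own. The authors deposited 1 FPKM value per gene and library, rounded to 2 decimals, and 1 p-value and 1 q-value per gene for a comparison the file does not name, which were not used.

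Depth is unknown. In 66 pairs of libraries, the fullest bin (0.02 wide) of the natural log ratio of low FPKM values held 2.08% to 4.32% of genes, so no steps of whole reads were seen. Limma 3.58.1 (R 4.3.3) was fitted to log2(FPKM + 1) of the 11548 genes that reached 1 FPKM in 3 or more libraries, with 4 arms, a trended variance prior, 8 residual and 2.505 prior degrees of freedom, and Benjamini-Hochberg adjustment over all genes within each of 6 comparisons. A gene was called at an adjusted p under 0.05. The pseudocount of 1 understates the log2 changes of low genes. The fit was tested on simulated data. Tests were two-sided, and every adjusted p-value in the text is from limma.

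The members, the gene lists and the tests were chosen with earlier results of these data known. Named were the 6 genes, Lpar5, up to 3 called genes per list and comparison with the smallest p, list members given as examples, and the genes most correlated with Enpp2 (8), Plpp3 (4) and Lpar1 (4). In addition, Ctgf was named after its value was seen, as the only rise of its list with all libraries and no scaling, and the 10 cell cycle genes were added later. Among these, 1 gene and 1 gene list under this rule are not reported here. Alternatives were a pseudocount of 0.1, no filter, quantile and median-of-ratios scaling, a replicate block, leaving out each library, and replicates 2 and 3 alone.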

Additional observations from a re-analysis of the deposited data

Results flagged for a closer look

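The effect of RSPO2 differed with and without BMP2 in 2 genes of the SRF, MRTF and YAP target list, by the interaction term of the fit over all genes. For Acta2 the effect of RSPO2 with BMP2 minus that without was −1.22 on the log2 scale (SE 0.18, limma adjusted p = 0.0308), and for Myl9 it was −1.49 (SE 0.17, adjusted p = 0.0165). The Acta2 value lost its call without the filter (adjusted p = 0.0829), under quantile normalization (−1.04, adjusted p = 0.0583) and median-of-ratios scaling (−1.01, 0.12), and in 8 of the 12 fits without 1 library (highest 0.133). That of Myl9 lost it under quantile normalization (−1.28, 0.0583) and in 5 of the 12 (highest 0.0859).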

How the results depend on the processing

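Depth is unknown, so the precision of values near 0 cannot be stated. No member or named list gene that was called with all libraries turned its direction in another setting. S1pr1 in BMP2+RSPO2 against Control, not called with all libraries, was called lower without BMP2+RSPO2 replicate 1. It had the other sign under median-of-ratios scaling. The number of called genes depended on the setting. RSPO2 against Control had 9, and 0 with a pseudocount of 0.1, 4 under quantile normalization and 195 from replicates 2 and 3 alone. BMP2 against Control had 175, and 963 from replicates 2 and 3. BMP2+RSPO2 against Control had 2656 (421 higher, 2235 lower), and 1587 (710, 877) under quantile normalization, 1638 (764, 874) under median-of-ratios scaling and 3994 from replicates 2 and 3. BMP2+RSPO2 against BMP2 had 506 (74, 432), and 306 without a filter, 226 (102, 124), 258 (129, 129) and 2512 under the same settings. BMP2+RSPO2 against RSPO2 had 3015 (499, 2516), and 1752 (778, 974) and 1797 (838, 959) under the scalings. The interaction had 34 (1, 33), and 5 (1, 4), 15 (3, 12) and 1109. The cause was not tested, beyond the fewer libraries of replicates 2 and 3 alone. Enpp2 with BMP2 against Control was −3.82 with a pseudocount of 0.1, which shrinks low values less. From replicates 2 and 3 alone it was called for RSPO2 against Control (2.01), BMP2+RSPO2 against BMP2 (0.95) and the interaction (−1.06). Each of these comparisons draws on Control or BMP2 libraries by which the gene was chosen.

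Without 1 library each, called genes ranged from 0 (without Control replicate 2 or RSPO2 replicate 3) to 21 for RSPO2 against Control, 65 (without Control replicate 1) to 403 for BMP2 against Control, 1595 (without Control replicate 1) to 2758 for BMP2+RSPO2 against Control, 60 (without BMP2 replicate 3) to 709 against BMP2, 1847 (without RSPO2 replicate 2) to 3058 against RSPO2 and 0 (without Control replicate 2 or 3 or BMP2 replicate 2 or 3) to 187 for the interaction. Each highest value came without BMP2+RSPO2 replicate 1. At an unadjusted p under 0.05, RSPO2 against Control had 418 genes and the interaction 1504 with all libraries.

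With the replicate number as a block, RSPO2 against Control had 26 called genes, BMP2 against Control 329, the combination against BMP2 1710 and the interaction 91. Enpp2 in this block fit was called for RSPO2 against Control (1.73, limma adjusted p = 0.0312) and BMP2+RSPO2 against BMP2 (0.74, 0.0422). Deviations from the arm means correlated by over 0.1 in 16 of 18 same-numbered pairs of libraries (−0.12 to 0.63), and 9 of 12 libraries correlated best with their own number, a hint from the data and not from the design, so the numbers were not taken as a pairing of all arms. The 3 pairs of RSPO2 with Control (0.31 to 0.63) and of BMP2+RSPO2 with BMP2 (0.16 to 0.36) were each over 0.1.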

Other observations

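Some genes of LPA and related lysolipid synthesis lay under the filter on low values and were not tested. Gdpd1, a lysophospholipase D other than autotaxin, was at 0.28 ± 0.131 FPKM in Control, 0.80 ± 0.193 under RSPO2, 0.417 ± 0.271 under BMP2 and 0.793 ± 0.329 under the combination. Pla1a, a phosphatidylserine-specific phospholipase, was at 0.95 ± 0.111 FPKM in Control, 1.06 ± 0.658 under RSPO2, 0.39 ± 0.184 under BMP2 and 0.463 ± 0.226 under the combination. These genes were picked for mention after their values were seen.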
